A study of Mus musculus with 5 samples.

Results

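The genes described here encode the core proteins of pre-mRNA splicing and of hnRNP particles. They were taken by gene symbol from the array annotation, as every gene whose symbol begins with Hnrnp, Srsf (or the older Sfrs), Snrp, Sf3a or Sf3b, together with U2af1 and U2af2. Snrpn was left out. The rule found 52 of 19087 named genes, measured by 105 of 44290 array features. These were 20 hnRNP genes, 11 snRNP protein genes, 10 SR protein genes, 9 SF3A and SF3B genes and the pair of U2AF genes.

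The arrays came from a study of maternal cocaine exposure in CD1 mice. Dams received subcutaneous cocaine hydrochloride at 20 mg/kg 2 times a day from gestational day 8 to 19, and saline-control dams were injected with saline alone on that timetable and pair-fed. Hippocampal pyramidal layer was cut by laser from 3-day-old male offspring. RNA of the cocaine group and of the saline-control group was compared on 5 whole-genome arrays with 2 channels each. The study's paper took tissue for its gene expression analysis from the right hemisphere and does not mention these arrays. Tissue of this kind can hold interneurons, glia and blood beside pyramidal neurons, and in such bulk RNA fewer cells of a type and less RNA per cell cannot be told apart. The cocaine channel always carried the same dye, so a dye effect and a cocaine effect cannot be told apart. The deposited values are log2 ratios, and no source used here says which channel was divided by which. The order of the channels and the way the study writes its other ratios make cocaine over saline the likely reading, on which "higher" below rests. Nothing in the labels assigns the 5 arrays to different litters. The p-values therefore cover the spread among these arrays alone, and that spread may be technical.

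A transcript is spliced by the spliceosome, whose small nuclear RNAs are packed with proteins into snRNPs. The U1 snRNP recognises the 5′ splice site, U2AF marks the 3′ splice site, and the U2 snRNP with its SF3A and SF3B proteins settles on the branch point. SR proteins bind exons and help recruit this machinery. The hnRNP proteins coat nascent RNA, often oppose SR proteins at nearby sites, and accompany mRNA out of the nucleus and, in neurons, along dendrites. Both groups take part in the choice of alternative exons, of which the developing brain makes wide use.

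Most of these transcripts lay above the middle of the array. Each array was centred on its own median feature, a gene's value on an array is the mean over its features, and 51 of the 52 members had a value on at least 3 arrays and were tested with limma. The median of their mean log2 ratios was 1.03, with quartiles of 0.585 and 1.47, against -0.139 over all 28035 genes and unnamed features tested. The mean was above 0 for 45 members and below 0 for 6. Of the 51 members, 10 were higher and 0 lower at a limma adjusted p under 0.05 (Benjamini-Hochberg over all 28035), which is 19.6%. Over all 28035, 7.05% passed in either direction, 5.89% higher and 1.16% lower. At an unadjusted p under 0.05, 25 of the 51 members were higher and 0 lower, against 3744 higher and 2922 lower of all 28035.

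The count and its direction depended on the reference level and on the reading of zeros. With the deposited values left uncentred 0 members were higher and 2 lower (3.92% called), against 29.2% of all genes called. With arrays centred on their ribosomal protein genes 0 were higher and 9 lower (17.6%), against 69.9% of all genes. An exact 0 was read as not measured, yet on arrays 3 to 5, where most measured values match ratios of low whole numbers, some zeros may be true ratios of 1. With zeros kept on all 5 arrays and counted in the centring, 0 members and 0.198% of all genes passed limma. At an unadjusted p under 0.05, 20 members were higher, with no count over all genes given beside it. This setting also kept zeros on arrays 1 and 2, where the deposited medians were -2.68 and -2.52. It therefore does not test the reading of zeros on arrays 3 to 5 alone. One-class SAM also called 0 members, and 0.292% of all genes.

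The members were above the middle on each array taken alone. Their medians on arrays 1 to 5 were 0.949, 1.21, 1.17, 0.821 and 1.12, and those above 0 numbered 41 of 49, 44 of 50, 41 of 50, 43 of 51 and 32 of 42. Of the 39 members measured on all 5 arrays, 21 were above 0 on each and 0 were below 0 on each, against 2695 and 779 of 11731 over all genes. The calls depended on single arrays, among the members and over all genes alike. Without array 1 or without array 2, 0 members passed limma, and 0.275% and 0.322% of all genes did. In these settings 23 and 21 members were higher at an unadjusted p under 0.05, and 0 and 1 lower. The share of all genes at an unadjusted p is not given for them. Without array 3, 5 members (10%) passed, against 6% of all genes. The members' medians without each array stayed between 0.919 and 1.15.

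**Figure D1:**
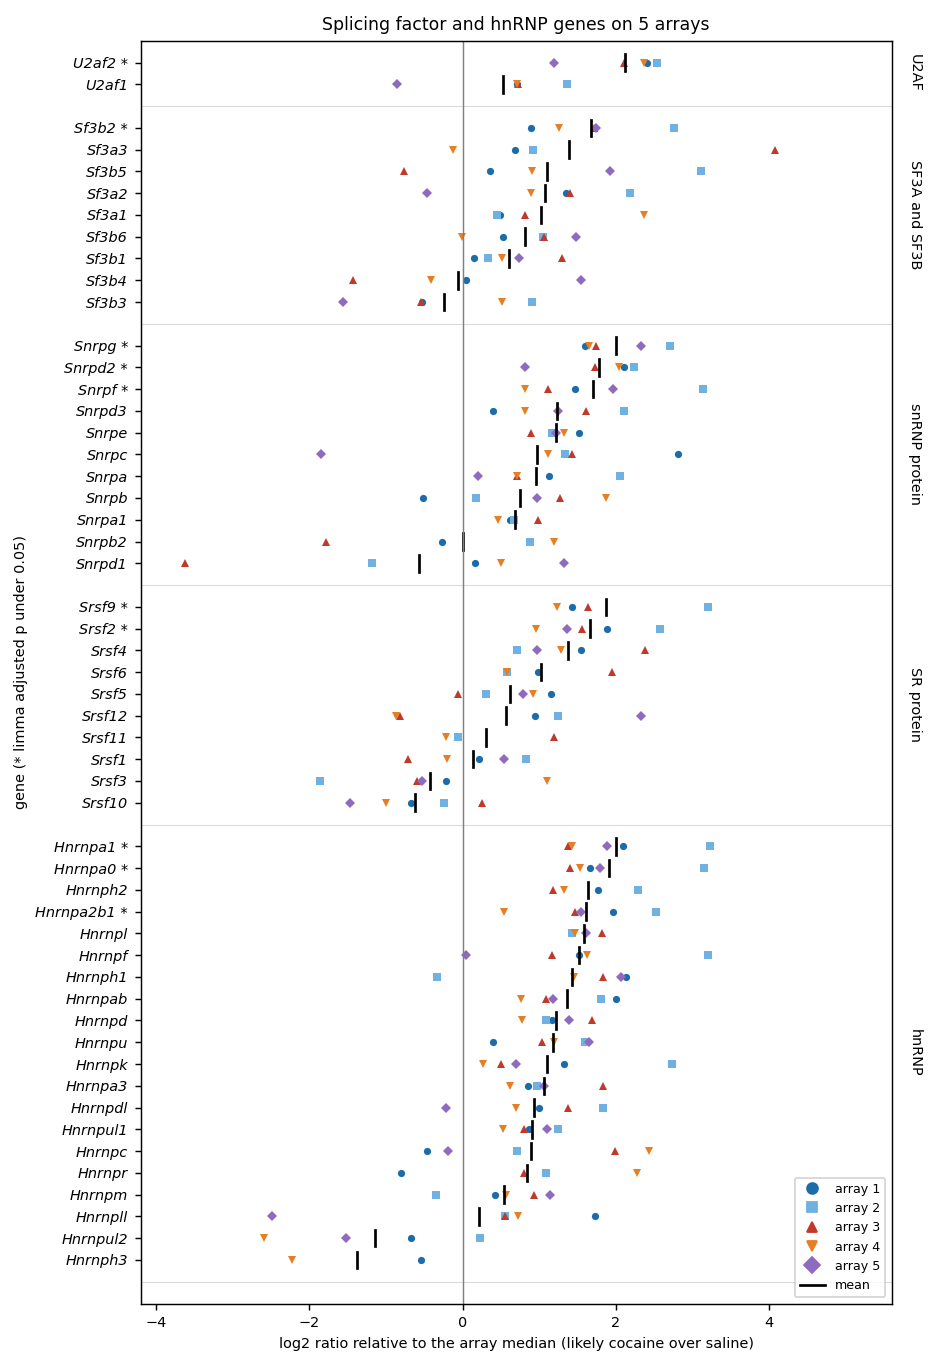
Log2 ratio of each member relative to the array median (horizontal axis, likely cocaine over saline) on the arrays that measured it, 1 symbol per array, with the mean as a vertical bar and genes grouped by family. The 10 members with a limma adjusted p under 0.05 carry an asterisk, and their values all lie to the right of 0.

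**Figure D2:**
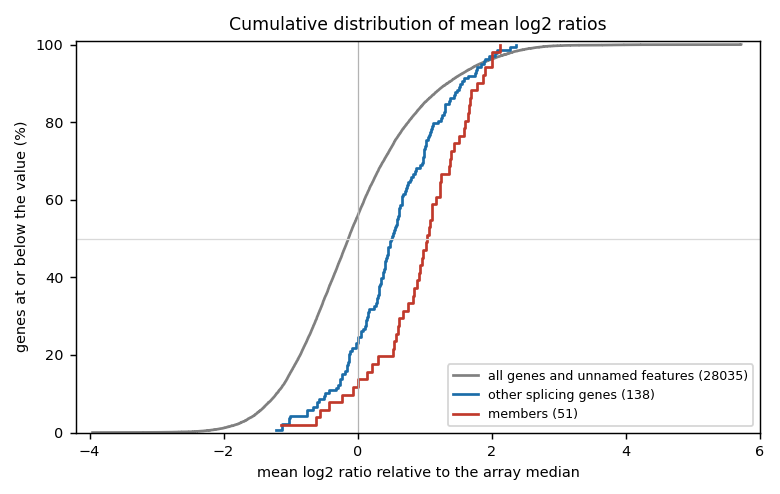
Share of genes (percent, vertical axis) with a mean log2 ratio at or below the value on the horizontal axis, for all 28035 genes and unnamed features, for 138 other splicing genes and for the 51 members. The curve of the members crosses 50% at 1.03 and that of all genes at -0.139, while the highest member, at 2.12, lies well inside the upper tail of all genes.

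The kind of ratio deposited moved with these values. A large part of the deposited values equal, at 3 decimals, a log2 ratio of whole numbers up to 30. Some values may match by coincidence, and their share was not estimated. Values with a match, called small ratios here, made up 43.7% of the measured member values and 62.9% of those of all features. On arrays 3 to 5 the 2 kinds stood apart in level. The median over all features of the ratios that are not small was 1.59, 1.32 and 1.50 there, and that of the small ones -0.213, -0.222 and -0.604. Member features with ratios that are not small had medians of 1.51, 1.14 and 1.36 on these arrays, a little under all features of that kind. Their small ratios had medians of 0.942, 0.671 and 0.324, about 1 log2 unit above the small ratios of all features. On arrays 1 and 2 the kinds hardly differed over all features (medians of -0.010 and -0.034 for ratios that are not small), and there the member features of that kind stood at 0.904 and 1.33. The small ratios there had medians of 0.034 and 0.065 over all features and 0.749 and 1.42 over member features.

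Features with no small ratio on any array allow a stricter comparison. There were 803 of them, with a median mean of 2.22 and quartiles of 1.80 and 2.57. The 8 that belong to members, of 7 genes, had a median of 1.87, and only 2 of them lay above 2.22, a feature of Hnrnpa0 at 2.96 and one of Hnrnpa1 at 2.69. With all small ratios left out, the median of the 37 members still tested was 1.29 and that of all 5222 genes still tested was 1.37. In that setting 22 members (59.5%) passed limma against 50.1% of all genes. Each array was then centred again on its median over all genes with a ratio that is not small on it, tested or not. Such ratios came from 26053, 23616, 5129, 4485 and 2718 features on arrays 1 to 5, so the reference differs between arrays. With this reference 0 of 37 members passed limma, also at an unadjusted p under 0.05, against 0.919% of all 5222 genes. The medians were 0.596 and 0.676. That count does not compare the members with the remaining genes on a common reference. The members' median was thus above that of all genes tested, but not above that of genes with ratios that are not small on at least 3 arrays. The part of the kind of ratio in the calls was not tested further.

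**Figure D3:**
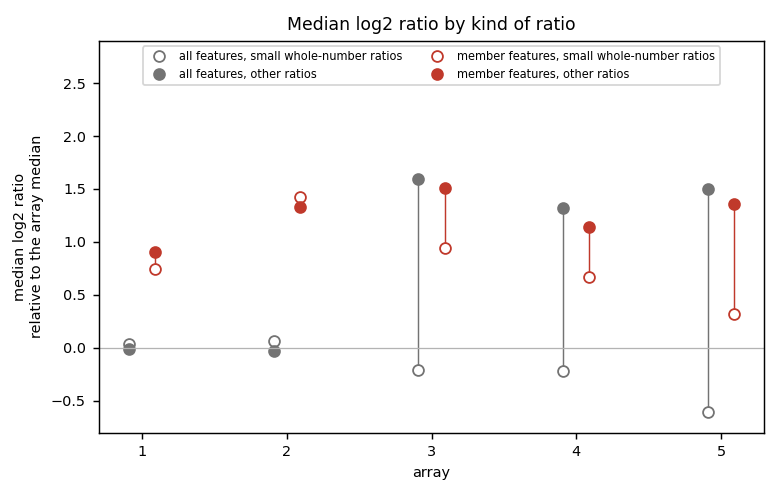
Median log2 ratio relative to the array median (vertical axis) on each of the 5 arrays, for ratios of small whole numbers (open circles) and other ratios (filled circles), over all features (grey) and member features (red). On arrays 3 to 5 the filled circles of all features lie at 1.32 to 1.59, level with or above those of the members, and on arrays 1 and 2 they lie near 0, below the members.

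The 3′ splice site factors gave the highest member and one that did not pass. U2af2, the large U2AF subunit that binds the polypyrimidine tract, had log2 ratios of 2.41, 2.54, 2.11, 2.36 and 1.19 on arrays 1 to 5. All 5 values were well above 0, with array 5 the lowest. The mean was 2.12 ± 0.54 (SD, n = 5; limma standard error 0.43, 95% interval 1.20 to 3.04, adjusted p = 0.014). Its 2 features had means of 2.46 and 1.80, and array 4 was measured by the lower of them alone. U2af1, the small subunit that contacts the AG at the intron's end, was at 0.711, 1.36, 0.722, 0.712 and -0.862. Its mean of 0.53 ± 0.83 (SD, n = 5) did not pass limma (adjusted p = 0.51, 95% interval -0.44 to 1.50), and its features had means of 1.21 and -0.157.

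Of the SF3A and SF3B genes, which had a median of 1.03, 1 of 9 passed. This was Sf3b2, a subunit that lies with Sf3b1 at the branch point, with values of 0.891, 2.77, 1.71, 1.26 and 1.74. All were above 0, and array 2 stood highest. Its mean was 1.67 ± 0.70 (SD, n = 5; limma adjusted p = 0.035). Sf3b1, the subunit that clamps the branch point helix, was also above 0 on each array, at 0.148 to 1.30, with a mean of 0.61 ± 0.45 (SD, n = 5; limma adjusted p = 0.41). All of its measured values were small ratios. Sf3a1, which ties SF3A to the U2 particle, was measured on 4 arrays, at 0.488, 0.449, 0.816 and 2.36 (limma adjusted p = 0.25). Sf3b3 was the lowest of the family on 5 arrays, with values on both sides of 0 from -1.55 to 0.911 and a mean of -0.24 ± 0.97 (SD; limma adjusted p = 0.79).

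The Sm proteins, which form the ring around the U1, U2, U4 and U5 RNAs, held all 3 called snRNP genes. Snrpg, encoding Sm protein G, had values of 1.60, 2.70, 1.74, 1.65 and 2.32, none near 0, and a mean of 2.00 ± 0.49 (SD, n = 5; limma standard error 0.43, adjusted p = 0.015). Snrpd2, encoding Sm D2, was at 2.10, 2.23, 1.73, 2.04 and 0.819, close together on 4 arrays and lower on array 5 (mean 1.78 ± 0.57; limma adjusted p = 0.024). Its single feature gave no small ratio on any array. Snrpf, for Sm F, was at 1.47, 3.13, 1.11, 0.821 and 1.96 (mean 1.70 ± 0.91; limma adjusted p = 0.040). The other Sm genes did not pass. Snrpe, for Sm E, was above 0 on all 5 arrays, from 0.891 to 1.51 (mean 1.22 ± 0.23, limma adjusted p = 0.090). Snrpd3 had a mean of 1.24 ± 0.67 and was above 0 on all 5 arrays (limma adjusted p = 0.10). Snrpb, for Sm B, ran from -0.518 on array 1 to 1.88 on array 4 (mean 0.75 ± 0.94; limma adjusted p = 0.35). Snrpd1, for Sm D1, had the largest spread of any member, from -3.63 on array 3 to 1.32 on array 5, and its mean of -0.56 ± 1.93 had a 95% interval of -1.87 to 0.74 (limma adjusted p = 0.61).

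Of the U1 and U2 proteins named Snrp outside the Sm ring (Snrpa, Snrpc, Snrpa1 and Snrpb2), 0 of 4 passed limma (1 at an unadjusted p under 0.05). Snrpa, the U1 protein that binds a stem-loop of the U1 RNA, was above 0 on every array at 1.13, 2.05, 0.705, 0.716 and 0.195 (mean 0.96 ± 0.69; limma adjusted p = 0.20). Snrpc, which steadies U1 on the 5′ splice site, was above 1 on arrays 1 to 4, with a highest value of 2.81, and at -1.85 on array 5 (mean 0.97 ± 1.71; limma adjusted p = 0.32). Snrpb2, a U2 protein, had a mean of 0.0049 ± 1.34 over 4 arrays (limma adjusted p = 0.997), and its features averaged 1.34 and -1.33.

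Among hnRNP genes, with a median of 1.17, 3 of 19 passed, namely Hnrnpa1, Hnrnpa0 and Hnrnpa2b1. Hnrnpa1, which represses exons and shuttles between nucleus and cytoplasm, had values of 2.10, 3.23, 1.38, 1.43 and 1.88. The lowest array was still far above 0, and the mean was 2.00 ± 0.75 (SD, n = 5; limma standard error 0.45, 95% interval 1.05 to 2.96, adjusted p = 0.018). Its 4 features averaged 1.94, 1.80, 1.58 and 2.69. Hnrnpa0 was at 1.66, 3.15, 1.40, 1.53 and 1.79 (mean 1.91 ± 0.71; limma adjusted p = 0.021). Its features were unequal, at 2.96 and 0.854, and the latter was at -0.205 on array 1. Hnrnpa2b1, which binds RNAs carried into dendrites, was at 1.97, 2.52, 1.46, 0.542 and 1.55 (mean 1.61 ± 0.73; limma adjusted p = 0.042). Array 2 was the highest for each of these 3 genes. Hnrnpa3 and Hnrnpab, of the same A/B group of hnRNP proteins, were above 0 on all 5 arrays and did not pass, with means of 1.07 ± 0.46 and 1.37 ± 0.52 (limma adjusted p = 0.14 and 0.069).

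Other hnRNP genes had means near 1 without passing. Hnrnpu, a protein of the nuclear scaffold, was above 0 on all arrays, from 0.393 to 1.65 (mean 1.17 ± 0.51; limma adjusted p = 0.11). Hnrnpk, which binds C-rich RNA, was likewise above 0 throughout, at 1.32, 2.73, 0.496, 0.265 and 0.698 (mean 1.10 ± 0.99; limma adjusted p = 0.17). Hnrnpc, which binds U-rich tracts and can keep U2AF away from them, did not hold one sign. It was at -0.468, 0.706, 1.99, 2.43 and -0.194 (mean 0.89 ± 1.29; limma adjusted p = 0.31). Hnrnpll was the lowest of the family on 5 arrays, above 0 on arrays 1 to 4 and at -2.49 on array 5 (mean 0.22 ± 1.59; limma adjusted p = 0.85). The lowest tested member of all, Hnrnpul2, named after its values were seen, had a mean of -1.14 ± 1.20 over 4 arrays with a 95% interval of -2.33 to 0.051 (limma adjusted p = 0.23). Hnrnph3 was the member without a test, with values of -0.544 and -2.22 on 2 arrays.

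The SR proteins had the lowest median, 0.592, of the families with at least 5 members, and 2 of 10 passed. Srsf2, a component of nuclear speckles, was at 1.88, 2.58, 1.56, 0.961 and 1.36 (mean 1.67 ± 0.61, SD, n = 5; limma standard error 0.43, adjusted p = 0.033). All of its 4 features had means above 1, from 1.42 to 2.30. Srsf9 was measured on 4 arrays, at 1.42, 3.20, 1.64 and 1.23 (mean 1.87 ± 0.90, n = 4; limma adjusted p = 0.046), and array 5 gave an exact 0 that was read as not measured. Srsf1, the founding member of the family, lay on both sides of 0, at 0.218, 0.834, -0.711, -0.207 and 0.544 (mean 0.14 ± 0.61; limma adjusted p = 0.88). Srsf3 was above 0 on 1 array, at -0.215, -1.87, -0.595, 1.10 and -0.526 (mean -0.42 ± 1.06; limma adjusted p = 0.63). Srsf10, which turns into a splicing repressor when dephosphorylated, was also above 0 on 1 array, at -0.67, -0.246, 0.253, -0.999 and -1.47. Its mean of -0.63 ± 0.67 was the lowest of the SR genes (limma adjusted p = 0.41, 95% interval -1.57 to 0.31).

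An exact permutation test that flips the sign of each array (two-sided) gave the 9 called members with 5 arrays a p of 0.062, and Srsf9, with 4 arrays, a p of 0.125. These are the smallest values that 5 and 4 arrays allow, so this test could not pass 0.05 for any gene. Of the 41 tested members that did not pass limma, 15 had a 95% interval wholly above 0 and 36 an interval that reached above a log2 ratio of 1, so that an increase of that size was not excluded for them.

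Features of one gene often differed. Of 31 members with at least 2 features measured on 3 or more arrays, 20 had feature means over 1 log2 unit apart and 12 had feature means of opposite sign, with a median range of 1.41. The widest was Hnrnpc, whose 3 features averaged 1.56, 1.03 and -1.32. The features of Srsf1 averaged 1.14 and -1.22, and those of Srsf3 0.211, -2.15 and -0.040. Opposite signs were also found in Hnrnpab, Hnrnpk, Hnrnpll, Hnrnpul1, Sf3b3, Sf3b5, Snrpb2, Snrpd1 and U2af1. Hnrnpa3, Hnrnpdl, Snrpa, Snrpd3 and Srsf6 had all features above 0, as had Hnrnpa0 and Hnrnpa1, yet over 1 log2 unit apart, and the 4 features of Srsf10 were all below 0, from -1.72 to -0.019. Among called members, 6 had more than 1 feature and all of these features averaged above 0. With 1 feature per gene in place of the average, 7 of the 10 called members passed limma, with 4 others. That is 21.6% of 51 members, against 8.79% of all 28001 genes. Which transcript forms or near-identical copies a feature detects is not annotated, and for Hnrnpa1 and the Sm genes, which have processed pseudogenes, signal from such copies cannot be told apart.

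**Figure D4:**
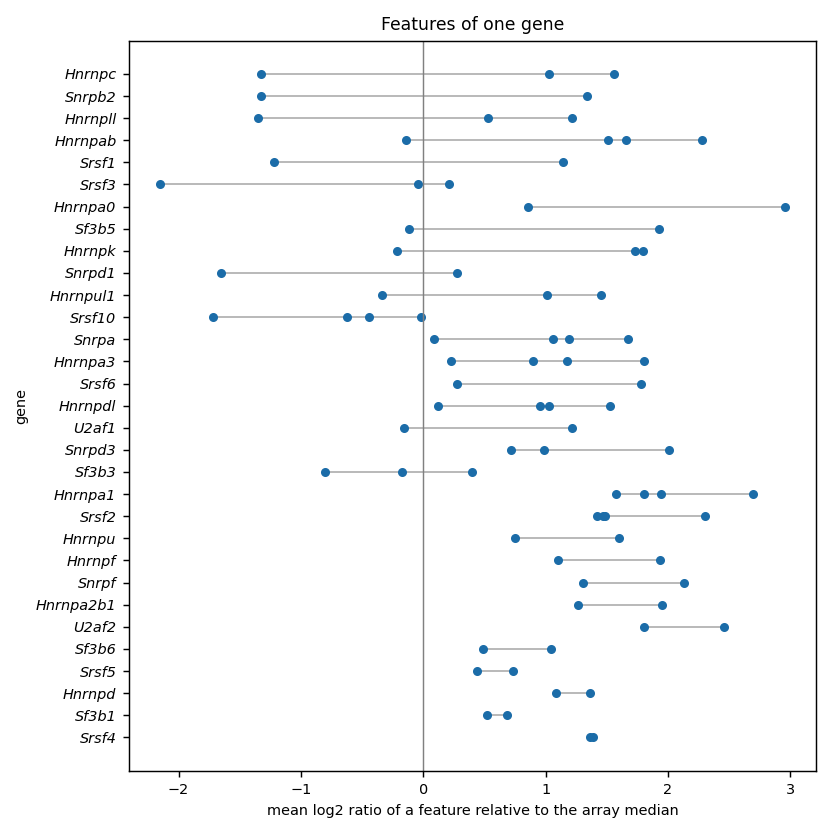
Mean log2 ratio relative to the array median (horizontal axis) of each feature measured on at least 3 arrays, for the 31 members with more than 1 such feature, joined by a grey line per gene and ordered by their range. The range runs from 0.028 in Srsf4 to 2.88 in Hnrnpc, and in 12 genes the line crosses 0.

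Promoter sequence was set beside the calls, since the members lay together on one side of the arrays. RefSeq promoters (mouse assembly GRCm38.p6) were given for 45 members, with 60 start sites. Hnrnpll, Hnrnpul2, Sf3b4, Sf3b5, Snrpb, Snrpd1 and U2af2 were not matched. The 250 bases before each start were searched on both strands for 7 motifs, and the 3 most frequent in members are described here. Start sites of one gene can lie a few bases apart and share a match, as in Hnrnpa2b1 and Sf3b2, so genes with a match at any start are counted. CCAAT, the box bound by NF-Y, was found in 22 of 45 members (48.9%) against 37.5% of all 27025 genes. It was in 7 of 9 called members and in 15 of 36 of the others. GGGCGG, the GC box bound by Sp1, was in 73.3% of members against 35.4% of all, with 5 of 9 in called members and 28 of 36 in the others. CCGGAAG, a core for Ets factors, was in 31.1% against 7.8%, with 2 of 9 and 12 of 36. Matches of GGGCGG and CCGGAAG can share bases. The remaining motifs were the palindromic NRF1 core (2.2% of members against 0.9% of all), the E-box CACGTG (8.9% against 6.9%), the TATA box TATAAA (11.1% against 14.3%) and a YY1 motif (0% against 0.4%). These shares are a description, with no test.

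The 120 bases before the start are shown for called and uncalled members with and without CCAAT there. Called and with it are Hnrnpa1 (chr15:103240277-103240396, plus strand) and Snrpg (chr6:86371420-86371539, plus strand), and called without it is Snrpd2 (chr7:19149718-19149837, plus strand). Of the SR genes with means below 0, Srsf3 (chr17:29032540-29032659, plus strand) has it and Srsf10 (chr4:135855951-135856070, plus strand) does not. Each is written 5′ to 3′ on the strand of the gene, with CCAAT or its complement ATTGG and GGGCGG or its complement CCGCCC in capitals.
Hnrnpa1: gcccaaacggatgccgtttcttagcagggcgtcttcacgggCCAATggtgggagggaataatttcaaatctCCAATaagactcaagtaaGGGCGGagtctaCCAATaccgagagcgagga
Snrpg: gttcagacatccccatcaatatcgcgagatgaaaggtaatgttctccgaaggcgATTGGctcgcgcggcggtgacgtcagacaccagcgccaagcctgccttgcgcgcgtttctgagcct
Snrpd2: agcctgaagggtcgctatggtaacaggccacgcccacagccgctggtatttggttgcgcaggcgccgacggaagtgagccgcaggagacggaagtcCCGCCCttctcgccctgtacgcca
Srsf3: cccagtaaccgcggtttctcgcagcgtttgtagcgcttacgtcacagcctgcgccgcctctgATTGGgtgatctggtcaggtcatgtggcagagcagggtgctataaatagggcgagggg
Srsf10: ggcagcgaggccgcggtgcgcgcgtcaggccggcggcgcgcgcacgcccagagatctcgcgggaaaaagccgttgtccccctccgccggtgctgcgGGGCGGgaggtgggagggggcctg
Hnrnpa1 holds 3 CCAAT matches and 1 GGGCGG in this stretch, Snrpg 1 CCAAT match and no GGGCGG, and Snrpd2 1 GGGCGG match and no CCAAT. Srsf3 holds 1 CCAAT match and no GGGCGG, and Srsf10 the reverse.

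Other genes of the splicing pathway, 138 tested in 5 lists, lay between the members and all genes. The 5 list medians ran from 0.349 to 0.703, and 12 genes were higher and 0 lower at a limma adjusted p under 0.05. Of 48 spliceosome cofactors and helicases 3 were higher (6.25%, median 0.62). They included Snrnp40, of the U5 particle, at 2.27 ± 0.89, Ddx5, an RNA helicase, at 1.96 ± 0.80, and Snrnp35, of the minor spliceosome, at 1.53 ± 0.39 (SD, n = 5 each; limma adjusted p = 0.014, 0.020 and 0.041). The list of LSm proteins, which form rings of their own as on U6, and of the SMN complex with its partners, which assembles Sm rings on snRNA, had 3 higher of 22 (13.6%, median 0.514). These were Gemin7, at 2.08 ± 0.71, Smn1, the survival motor neuron gene, at 1.88 ± 0.55, and Lsm7, at 1.90 ± 1.01 (SD, n = 5 each; limma adjusted p = 0.015, 0.020 and 0.027). All of these 6 genes were above 0 on every array.

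SR protein kinases and SR-related proteins had 2 higher of 20 (10%, median 0.349). These were Scaf1, at 2.36 ± 0.68 (SD, n = 5), and Clasrp, at 2.05 ± 0.99 (SD, n = 4), with limma adjusted p of 0.013 and 0.034. Of 40 further regulators of splicing, tissue-restricted and broadly expressed alike, 4 were higher (10%, median 0.425). Ewsr1, an RNA-binding protein of the FET family, was at 1.77 ± 0.46, and Celf3, a neuronal splicing regulator, at 1.78 ± 0.66. Khdrbs3, a STAR protein, was at 1.76 ± 0.74, and Khsrp, a KH-domain protein, at 1.56 ± 0.73. For these 4 (SD, n = 5 each) the limma adjusted p was 0.023, 0.026, 0.030 and 0.048. In the exon junction complex 0 of 8 passed (limma; 1 at an unadjusted p under 0.05), with a median of 0.703. These shares stand beside the 5.89% of all genes called higher, and differences between the lists were not tested.

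Markers of cell types and ribosomal protein genes were read beside these values, as the ratios hold no level from which the tissue could be checked. Of 9 pyramidal neuron markers tested 1 was higher by limma (median 0.397), of 8 interneuron markers 0 (4 at an unadjusted p under 0.05, median 1.06), of 6 astrocyte markers 1 (Fabp7, median 1.10) and of 3 red cell markers 2 (median 3.26). The 2 red cell calls were the alpha globin genes Hba-a1 and Hba-a2, both at 3.26. The third, Alas2, was at -0.77 ± 2.14 (SD, n = 4; limma adjusted p = 0.53). Oligodendrocyte, microglial, endothelial and dentate granule markers gave 0 calls by limma (2, at an unadjusted p under 0.05, were higher and 1 lower among 19), with medians from -0.841 to 0.226. Of 73 cytosolic ribosomal protein genes 49 were higher, with a median of 1.96, which is above the median of the members. Relative to these ribosomal protein genes the members lay lower, with a median of -1.06, and 9 of 51 (17.6%) were lower and 0 higher by limma. Over all genes 69.9% passed under that reference, with a median of -2.22. The part of these markers in the result was not tested.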

How the data were processed

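The 5 arrays were labelled with dye-carrying dendrimers (a far-red Alexa dye for cocaine, an orange one for saline), and the authors deposited 1 log2 ratio per feature and array. Scanning, background correction and normalization of these arrays are not given in the sources used here, and no intensities were used, so no intensity-dependent correction could be made. The scale and centring of the deposited values stay unknown: their medians over measured features were -2.68, -2.52, -0.372, -0.778 and 0.263. Exact zeros and the ceiling value of 16.61 were treated as not measured, which left 89.1%, 86.3%, 81.3%, 75.9% and 44.6% of all features and 96.2%, 95.2%, 91.4%, 91.4% and 72.4% of member features on arrays 1 to 5. Each array was centred on its median, a symbol's features were averaged, and limma 3.58.1 tested every gene with values on 3 arrays or more against 0 (in R 4.3.3; intercept only, eBayes, Benjamini-Hochberg over all genes and unnamed features). A small ratio is a value equal at 3 decimals to the log2 ratio of whole numbers up to 30. Symbols came from the platform table and all 105 member features matched a RefSeq gene identifier. The fit was tested on simulated data.

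The members and lists were chosen with earlier results of these data known. Named were members with an adjusted p under 0.05, the highest and lowest on 5 arrays of each family of at least 5, 16 members by role, members with features over 1 log2 unit apart, and up to 4 called genes of each other splicing list. Hnrnpul2, Hnrnph3, Snrpe and members given for a range or a flag stand outside that rule. Alternatives covered the reference level, zeros and ceiling, small ratios, scaling, coverage, single features, variance model, array weights, one-class SAM over 16 sign patterns (the methods name SAM for other arrays), a plain t-test with adjustment, and arrays left out. Centring again after small ratios were left out was added after the data were seen. The number of arrays limits the precision.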

Additional observations from a re-analysis of the deposited data

Results flagged for a closer look

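In 3 of 50 members examined 1 array stood apart from the others by Dixon's criterion at 95%, where chance flags about 1 in 20 groups. Hnrnpa0 was at 3.15 on array 2 and between 1.40 and 1.79 on the other 4 arrays. Hnrnph1, which binds G-rich RNA and has a single feature, was at -0.33 on array 2 and between 1.46 and 2.13 on the others. Hnrnpll was at -2.49 on array 5 and between 0.56 and 1.73 on the others.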

How the results depend on the processing

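The main setting called 10 members, all higher, and 1976 genes of 28035. The reference level turned directions. Without centring 2 members were called, 0 higher and 2 lower (Hnrnpul2 and Srsf10), with medians of -0.250 for members and -1.515 for all genes, of which 8174 were called. Centred on ribosomal protein genes, 0 were higher and 9 lower, with medians of -1.064 and -2.224 and 19606 genes called, and the means became -0.126 for Hnrnpa0, -0.028 for Hnrnpa1, -0.424 for Hnrnpa2b1, -1.816 for Hnrnpll, -0.359 for Sf3b2, -2.115 for Snrpb2, -0.248 for Snrpd2, -0.334 for Snrpf, -0.030 for Snrpg, -1.896 for Srsf1, -0.364 for Srsf2, -0.247 for Srsf9 and -1.503 for U2af1. U2af2 stayed above 0, at 0.090. The members' median minus that of all genes was 1.168 in the main setting and between 0.758 and 1.346 in the others, except -0.072 with small ratios left out and -0.081 with the arrays then centred again. Small ratios left out gave 22 members called and medians of 1.293 and 1.366. Centring again gave 0 members and 48 genes, with medians of 0.596 and 0.676.

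With exact zeros kept on all 5 arrays and counted in the centring, limma called 0 members and 62 genes (20 members higher at an unadjusted p under 0.05). With the ceiling value kept as well it called 0 and 0 (19 members). One-class SAM called 0 members and 82 genes, and the plain t-test with adjustment 0 and 1 (27 members at an unadjusted p under 0.05). Arrays 1 and 2 alone called 2 of 48 members (4.17%), both higher, against 6.06% of 25551 genes. Arrays 3 to 5 alone called 0 members and 0 genes by limma (15 members higher at an unadjusted p under 0.05). Counts at an unadjusted p in this paragraph cover members alone, with no share over all genes beside them. Leaving out 1 array at a time called from 0 to 8 members, 0 of them lower, and from 64 to 1950 genes. U2af2 and Hnrnpa1 passed in 11 of 21 settings, with limma adjusted p from 0.0044 to 0.90 and from 0.0038 to 0.97. Of 669 values of 33 named members under alternatives, 472 kept direction and side of the threshold, 111 lost the call, 18 gained one, 13 turned direction after a call or with one, and 55 without a call changed sign. Where no value above shows it, the cause was not tested. The pairing of cocaine and saline lies within each array, as each value is a ratio of both channels. The 5 arrays form 1 group, with no further pairing among them.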
